A study of Rattus norvegicus with 12 samples.

Results

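Pancreatic islets of growth-restricted and control Sprague Dawley rats were compared at 10 weeks of age. Intrauterine growth restriction (IUGR) was produced by tying off both uterine arteries of the dam at embryonic day 18, and control litters were culled to 8 pups. All animals had free access to chow, and islets were freed with collagenase and a density gradient. Chosen by their labels, the members are 6 of the 12 libraries of the study, 3 from IUGR rats and 3 from controls, all 10 weeks old; the other 6 libraries hold the same 2 conditions at 2 weeks. The labels name the libraries biological replicates and do not give sex, litter or pooling, so p-values measure the spread between these libraries. Ribosome-depleted total RNA was counted per transcript, each gene symbol was read from its transcript with the highest mean count, and 17360 of 25888 symbols had enough counts to be tested.

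An islet is a cluster of hormone cells inside an exocrine gland. Beta cells release insulin when glucose entry through a transporter, its phosphorylation and mitochondrial metabolism close potassium channels and open calcium channels, and their endoplasmic reticulum (ER) folds proinsulin in bulk. Acinar cells, which surround islets, secrete digestive enzymes and reach an islet preparation when the digest is incomplete. Mature beta cells are also known for keeping a group of widely expressed "disallowed" genes, such as lactate dehydrogenase A, very low.

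The exocrine pancreas took very different shares of the counts in the 2 groups. The acinar list of 46 genes found held 45.01%, 15.41% and 49.49% of the counts in control libraries 1, 2 and 3, and 1.424%, 2.597% and 0.7077% in IUGR libraries 1, 2 and 3. All 3 control libraries lay above all 3 IUGR libraries, and control library 2 stood far below the other 2 controls. The means were 36.6% ± 18.5 and 1.58% ± 0.954 (SD, n = 3 each), with a two-sided exact permutation p of 0.1, the smallest that 3 against 3 allows. The libraries held 39.6 to 64.2 M counts (M is 1000000) in controls and 30.4 to 35 M in IUGR, so the widest 95% Wilson interval, of control library 3, ran from 49.48% to 49.51%; it covers counting error only. Whether acinar cells were fewer in the IUGR preparations or held less RNA each cannot be told apart.

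Every enzyme class took part. Amylases, which cut starch, fell from a mean of 15.3% ± 8.2 of the counts to 0.566% ± 0.471. Trypsins, elastases, chymotrypsins and carboxypeptidases, the protein-cutting zymogens, held 13.1% ± 6.22 and 0.651% ± 0.344. Lipases and colipase, which digest fat, held 6.44% ± 3.31 and 0.258% ± 0.123. In each of these 3 classes the groups did not overlap, with the same exact permutation p of 0.1 (n = 3 each). The Reg family, secreted lectins of injured pancreas, was spread differently: 0.07526%, 0.1403% and 0.7152% in the controls and 0.008259%, 0.01535% and 0.001451% in the IUGR libraries. Every control lay above every IUGR library, and control library 3 stood far above the other controls. A locus with no gene name, LOC100911494, followed amylase in every library at 77% to 82.6% of the counts of Amy2a3, the pancreatic amylase gene. It took 14.5%, 4.88% and 16.5% of the control counts and 0.29%, 0.913% and 0.192% of the IUGR counts. Added to the list, it raised the acinar means to 48.6% and 2.04%.

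The hormone shares ran the other way. Both insulin genes together, Ins1 and Ins2, held 6.565%, 10.69% and 3.86% of the counts in control libraries and 22.13%, 20.56% and 21.88% in IUGR libraries. The groups did not overlap. Over the counts left after the acinar list, the means were 10.7% ± 2.7 and 21.9% ± 0.683 (exact permutation p = 0.1, n = 3 each), so the insulin share differed 2.04-fold rather than 3.06-fold. The mitochondrial genome held 0.776% ± 0.403 and 1.7% ± 0.074 of all counts and 1.17% ± 0.266 and 1.72% ± 0.0628 of the counts left. For ribosomal proteins the order of the groups turned with the denominator: 1.19% and 1.68% of all counts, 1.82% and 1.71% of the counts left.

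**Figure D1:**
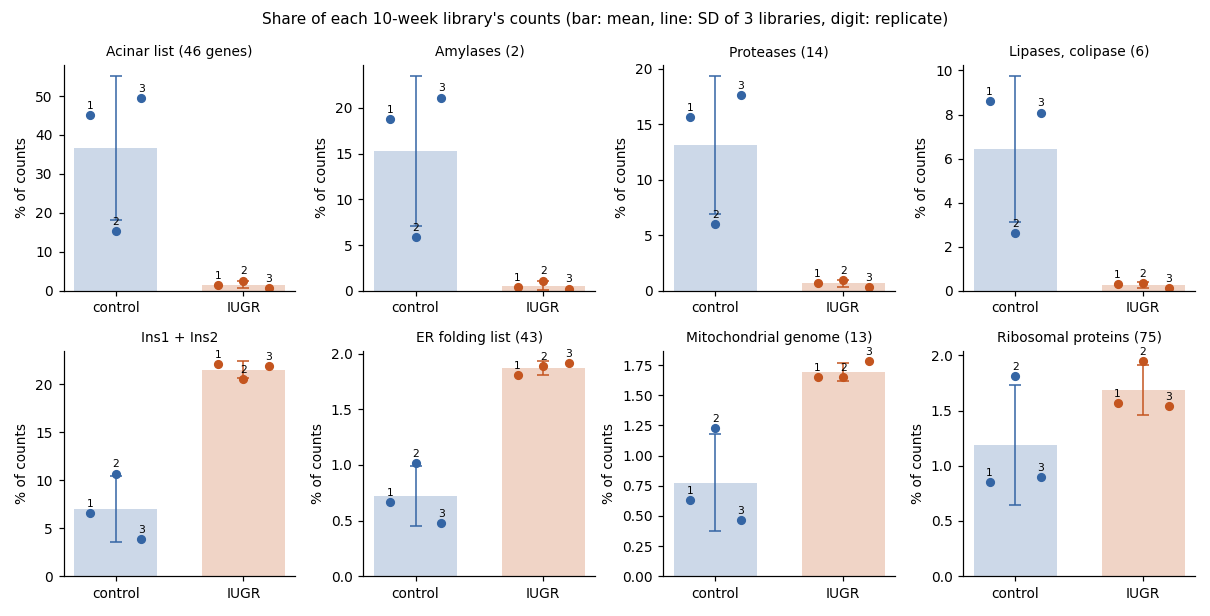
Share of the counts (%, linear axes from 0) that 8 gene sets took in each 10-week library. Points are libraries marked by replicate number, bars the mean and lines the SD of 3 libraries. The acinar list ran from 15.41% to 49.49% in controls and from 0.7077% to 2.597% in IUGR, and the insulin genes ran the other way.

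Promoters of 7 genes that changed are shown here, from the ER, immediate-early and acinar lists, in each of which all called members moved one way. They come from RefSeq on build GRCr8, not the build of the counts, and cover the 250 bases before the annotated start, 5′ to 3′. Capitals mark the motif letters searched on both strands. For the ER chaperones Hspa5 (chr3:38452766-38453015 on the plus strand), Hsp90b1 (chr7:23012294-23012543 on the minus strand) and Calr (chr19:40213117-40213366 on the plus strand) these are the ER stress response element, CCAAT and CCACG with 9 bases of any kind between them, and in Calr also a TATA box, TATAAA. For the immediate-early genes Ier2 (chr19:40399123-40399372 on the plus strand) and Jund (chr16:18769772-18770021 on the minus strand) they are the cAMP response element, TGACGTCA. For the lipase gene Pnlip (chr1:267784360-267784609 on the plus strand) and the carboxypeptidase gene Cpb1 (chr2:104714663-104714912 on the minus strand) they are the TATA box.
Hspa5: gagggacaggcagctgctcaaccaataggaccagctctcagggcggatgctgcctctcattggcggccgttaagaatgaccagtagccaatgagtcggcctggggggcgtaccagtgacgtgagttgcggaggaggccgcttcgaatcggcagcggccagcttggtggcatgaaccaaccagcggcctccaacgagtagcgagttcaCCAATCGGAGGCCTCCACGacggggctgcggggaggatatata
Hsp90b1: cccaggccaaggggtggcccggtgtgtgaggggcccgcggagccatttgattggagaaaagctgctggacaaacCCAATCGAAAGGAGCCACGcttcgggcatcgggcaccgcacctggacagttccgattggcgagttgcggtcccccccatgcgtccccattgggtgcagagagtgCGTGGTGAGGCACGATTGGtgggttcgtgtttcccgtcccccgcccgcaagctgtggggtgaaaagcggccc
Calr: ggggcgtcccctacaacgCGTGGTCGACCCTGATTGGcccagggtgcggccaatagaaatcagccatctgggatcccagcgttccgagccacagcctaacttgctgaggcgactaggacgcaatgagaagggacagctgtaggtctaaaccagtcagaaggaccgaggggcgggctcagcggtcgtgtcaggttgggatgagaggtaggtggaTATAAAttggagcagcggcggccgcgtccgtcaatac
Ier2: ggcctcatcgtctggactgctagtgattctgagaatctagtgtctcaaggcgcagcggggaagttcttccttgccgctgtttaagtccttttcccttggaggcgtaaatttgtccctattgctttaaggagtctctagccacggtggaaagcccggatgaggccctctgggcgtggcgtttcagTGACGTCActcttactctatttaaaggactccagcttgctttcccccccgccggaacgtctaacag
Jund: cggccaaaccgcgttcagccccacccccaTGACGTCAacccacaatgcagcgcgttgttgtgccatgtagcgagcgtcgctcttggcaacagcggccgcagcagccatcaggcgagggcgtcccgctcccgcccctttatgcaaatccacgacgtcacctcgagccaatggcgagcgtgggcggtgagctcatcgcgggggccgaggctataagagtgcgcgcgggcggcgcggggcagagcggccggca
Pnlip: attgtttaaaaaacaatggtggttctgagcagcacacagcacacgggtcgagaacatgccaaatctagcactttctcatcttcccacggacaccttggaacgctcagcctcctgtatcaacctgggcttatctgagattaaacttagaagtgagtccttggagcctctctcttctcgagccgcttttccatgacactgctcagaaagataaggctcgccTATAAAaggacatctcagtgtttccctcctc
Cpb1: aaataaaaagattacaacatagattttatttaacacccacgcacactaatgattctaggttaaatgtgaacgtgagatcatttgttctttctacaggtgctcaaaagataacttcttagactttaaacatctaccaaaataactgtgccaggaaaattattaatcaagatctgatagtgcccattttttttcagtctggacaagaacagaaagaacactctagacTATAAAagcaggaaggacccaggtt

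Among 11111 promoters of tested symbols, 0.135% held the ER stress response element, 2.77% the cAMP response element and 7.12% the TATA box. Of 36 promoters matched for the ER folding list, 6 (16.7%) held the ER stress response element, with Hsp90b1 holding 2. The 3 carriers printed above rose in IUGR, while the other carriers, Canx, Dnajc3 and Creld2, did not pass. Of 25 promoters matched for the immediate-early list, 5 (20%) held the cAMP response element: Jund, Ier2, Btg2 and Maff, which fell, and Dusp1, which did not pass. Of 33 matched for the acinar list, 14 (42.4%) held the TATA box. A match describes letters in these windows, and a window without one lacks only these letters.

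Across all tested genes, 2108 (12.1%) rose and 2670 (15.4%) fell in IUGR islets at an edgeR adjusted p under 0.05, and the median log2 fold change of all genes was -0.01. The CPM of the groups did not overlap in 21.0% of genes with IUGR above and 18.8% with IUGR below. Among called genes the groups did not overlap in 2079 of the 2108 that rose and 2465 of the 2670 that fell. For a called gene non-overlap is therefore not separate support, and some named genes were picked by it. Falls were deep and rises shallow. The median of the called genes was -1.26 among falls and 0.46 among rises, with 1706 falls and 113 rises of at least 2-fold, and 612 and 8 of at least 4-fold. These values use TMM scaling, which sets the bulk of genes level between libraries whose composition differs this much. With library sizes taken as the total less the acinar list and no TMM factor, the median moved to 0.26 and the split to 4101 higher and 1470 lower, 73.6% higher in place of 44.1%.

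Control libraries 1 and 3 had the high acinar shares, so the main counts below are also given without both. That leaves control library 2 alone, whose spread is assumed to equal that of the other groups, and there 1459 genes (8.40%) rose and 2271 (13.1%) fell. Of the 4778 genes called, 4769 kept their sign. Both fits hold control library 2 and the same IUGR libraries, so few signs could turn. Control library 2 lay within or beyond the IUGR range in 7 of the genes that rose and 67 of those that fell. With the acinar level as a covariate, 2 genes (0.0115%) rose and 55 (0.317%) fell by edgeR's adjusted p, and 3481 passed at an unadjusted p under 0.05. The acinar levels of the 2 groups do not overlap, so the covariate and the group cannot be told apart. Leaving out single libraries moved the counts most for control library 3, without which 831 genes rose and 1632 fell by edgeR. Control library 2 was the lowest control in 911 and the highest in 985 of the genes that fell.

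**Figure D2:**
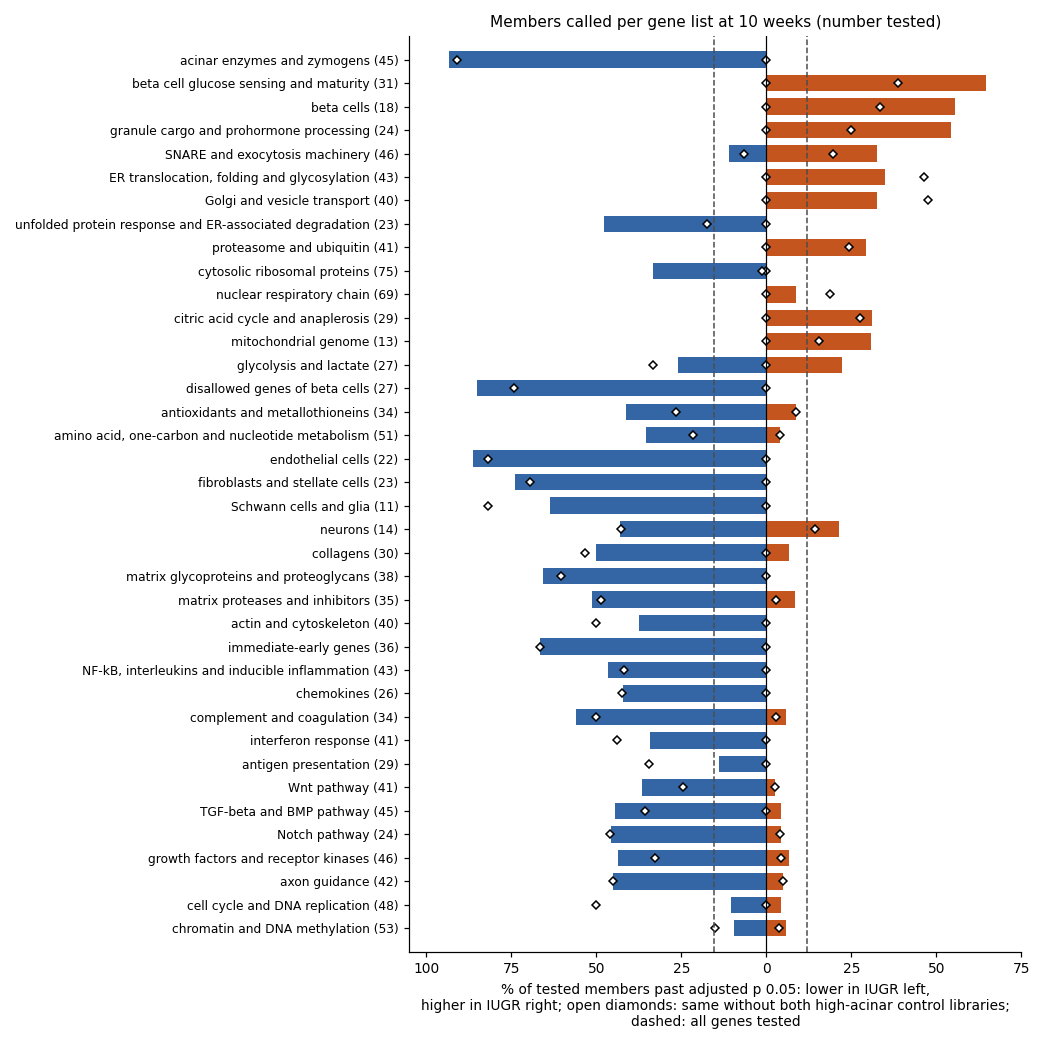
Percent of each list's tested members past an edgeR adjusted p of 0.05, lower in IUGR to the left and higher to the right, with the number tested in parentheses. Open diamonds give the same without control libraries 1 and 3, and dashed lines give all genes tested, 15.4% lower and 12.1% higher.

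Of 45 tested acinar genes, 42 fell, with a list median of -5.72; 41 fell without control libraries 1 and 3, with a median of -3.40. Pnlip, which splits triglycerides in the gut, stood at 70801, 8623 and 61651 CPM in the control libraries and 636, 794 and 332 CPM in the IUGR libraries (CPM are counts per 1000000 after TMM scaling; log2 fold change -6.32 ± 0.85, edgeR adjusted p = 0.0013). The highest IUGR library lay far below the lowest control. Cel, the bile salt-activated lipase, stood at 50516, 6953 and 58118 CPM in the control libraries and 647, 943 and 274 CPM in the IUGR libraries (log2 fold change -5.95 ± 0.92, edgeR adjusted p = 0.0021). Cuzd1, a protein of zymogen granules, had 1585, 314 and 1812 CPM against 13.3, 16.4 and 8.75 CPM (log2 fold change -6.59 ± 0.76, edgeR adjusted p = 0.00081). In all 3 genes control library 2 was the lowest control and still lay above every IUGR library. It was the lowest control in 39 of the 42 genes that fell. Of duct markers 20% fell, against 15.4% of all genes. Duct markers had no rise and 4 falls among 20 (0 and 2 without control libraries 1 and 3), and the duct keratin Krt7 stood at 62.1, 53.7 and 43.7 CPM against 75.3, 65.7 and 76.9 CPM, with IUGR libraries above controls and no pass (log2 fold change 0.45 ± 0.18, edgeR adjusted p = 0.085).

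Among islet hormones, insulin itself did not pass in the edgeR comparison, which uses TMM scaling. Ins1 stood at 75730.1, 52442 and 49461 CPM in the control libraries and 99082, 93230.2 and 97037 CPM in the IUGR libraries (log2 fold change 0.70 ± 0.38, edgeR adjusted p = 0.19). Ins2 stood at 52329.7, 38419 and 35109 CPM in the control libraries and 69883, 64832 and 73590.5 CPM in the IUGR libraries (log2 fold change 0.73 ± 0.35, edgeR adjusted p = 0.14). For both, all IUGR libraries lay above all controls, yet neither gene passed. Iapp, the amyloid peptide released with insulin, had 11789, 7416 and 8196 CPM against 14870.2, 15756 and 17314 CPM (log2 fold change 0.81 ± 0.31, edgeR adjusted p = 0.071). Gcg, which encodes glucagon, had 4919.7, 8648 and 5891 CPM against 14293, 12888 and 5874 CPM; IUGR library 3 fell inside the control range (log2 fold change 0.76 ± 0.46, edgeR adjusted p = 0.23). Sst, the delta cell hormone, had 264, 345 and 275 CPM against 228, 345 and 267 CPM, and its groups overlapped throughout (log2 fold change -0.07 ± 0.24, edgeR adjusted p = 0.85). Ppy, encoding pancreatic polypeptide, rose from 173, 309 and 186 CPM to 679, 714 and 475 CPM (log2 fold change 1.48 ± 0.31, edgeR adjusted p = 0.0068), although without control libraries 1 and 3 it had a log2 fold change of 1.03 and an edgeR adjusted p of 0.1. All 3 IUGR libraries exceeded the highest control.

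Many genes that act between glucose and insulin release were higher in IUGR islets. Of 31 genes of beta cell glucose sensing and maturity, 20 rose and none fell, with a median of 0.57; 12 rose without control libraries 1 and 3, and 6 (without control library 3) to 23 (without control library 1) when single libraries were left out. Slc2a2, the glucose transporter GLUT2, had 971, 693 and 806 CPM against 1407, 1602 and 1942 CPM (log2 fold change 1.0 ± 0.21, edgeR adjusted p = 0.0068), and the groups did not overlap. Slc30a8, which loads zinc into insulin granules, had 429, 352 and 293 CPM against 638, 609 and 557 CPM (log2 fold change 0.75 ± 0.20, edgeR adjusted p = 0.018). Rfx6, a transcription factor of islet cells, had 50.5, 46.9 and 39.8 CPM against 96.3, 82.1 and 81.9 CPM (log2 fold change 0.92 ± 0.15, edgeR adjusted p = 0.0027). Prlr, the prolactin receptor, had 92.7, 61.9 and 58.1 CPM against 108, 124 and 129 CPM (log2 fold change 0.77 ± 0.17, edgeR adjusted p = 0.0089). Each of these 3 genes was also higher in every IUGR library than in any control. Of the 31 glucose-sensing and maturity genes, 21 also stand in other lists. The beta cell marker list, 14 of whose 18 genes stand in other lists, had 10 rises and no fall among 18 (6 and 0 without control libraries 1 and 3); its rises numbered 3 (without control library 3) to 13 (without control library 1) when single libraries were left out. Alpha cell markers had 3 rises and no fall among 15 (0 and 0 without control libraries 1 and 3). Delta cell markers had 2 rises and 1 fall among 12 (0 and 1 without control libraries 1 and 3).

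Granule cargo and prohormone-processing genes had 13 rises among 24 and no fall (median 0.61), and 6 rises without control libraries 1 and 3. Single libraries left out gave 3 (without control library 3) to 17 (without control library 1) rises. Chga, the chromogranin that condenses hormone in the granule, had 416, 303 and 315 CPM against 777, 1251 and 763 CPM (log2 fold change 1.43 ± 0.25, edgeR adjusted p = 0.0032). Scg2, a secretogranin, had 2260.3, 1359 and 1475 CPM against 2808, 3594 and 3886 CPM (log2 fold change 1.01 ± 0.27, edgeR adjusted p = 0.02). Scgn, a calcium sensor of endocrine cells, had 176, 153 and 131 CPM against 299, 299.8 and 276 CPM (log2 fold change 0.93 ± 0.18, edgeR adjusted p = 0.0058). The groups did not overlap in any of the 3. Pcsk2, a prohormone convertase, had 1801, 1365 and 1312 CPM against 2325, 2162 and 2549 CPM and missed the threshold (log2 fold change 0.65 ± 0.23, edgeR adjusted p = 0.054), as did Cpe, the carboxypeptidase that trims hormones, at 1953, 1469.8 and 1419 CPM against 2251, 2617 and 2263 CPM (log2 fold change 0.56 ± 0.23, edgeR adjusted p = 0.094).

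Exocytosis genes had 15 rises and 5 falls among 46 (9 and 3 without control libraries 1 and 3), and without control library 3 alone 4 rose and 5 fell. Sytl4, or granuphilin, which docks insulin granules, rose from 159.8, 115 and 116 CPM to 214, 216 and 256 CPM (log2 fold change 0.81 ± 0.20, edgeR adjusted p = 0.014). Syt4, a synaptotagmin of maturing beta cells, had 160.0, 122 and 108 CPM against 214, 296 and 264 CPM (log2 fold change 0.99 ± 0.22, edgeR adjusted p = 0.009). Snap25, which helps fuse granules with the membrane, had 75.2, 62.1 and 60.0 CPM against 123, 102 and 118 CPM (log2 fold change 0.80 ± 0.16, edgeR adjusted p = 0.0067). In all 3 the lowest IUGR library lay above the highest control. The falls included Rab27b, a granule GTPase also used by acinar cells, at 5.29, 2.33 and 6.06 CPM against 1.53, 0.797 and 0.544 CPM (log2 fold change -2.25 ± 0.44, edgeR adjusted p = 0.0054), and Sytl2, at 9.16, 12.8 and 13.1 CPM against 3.26, 4.33 and 3.95 CPM (log2 fold change -1.60 ± 0.18, edgeR adjusted p = 0.00081). Rab27b was lowest in control library 2 among controls and Sytl2 was not.

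**Figure D3:**
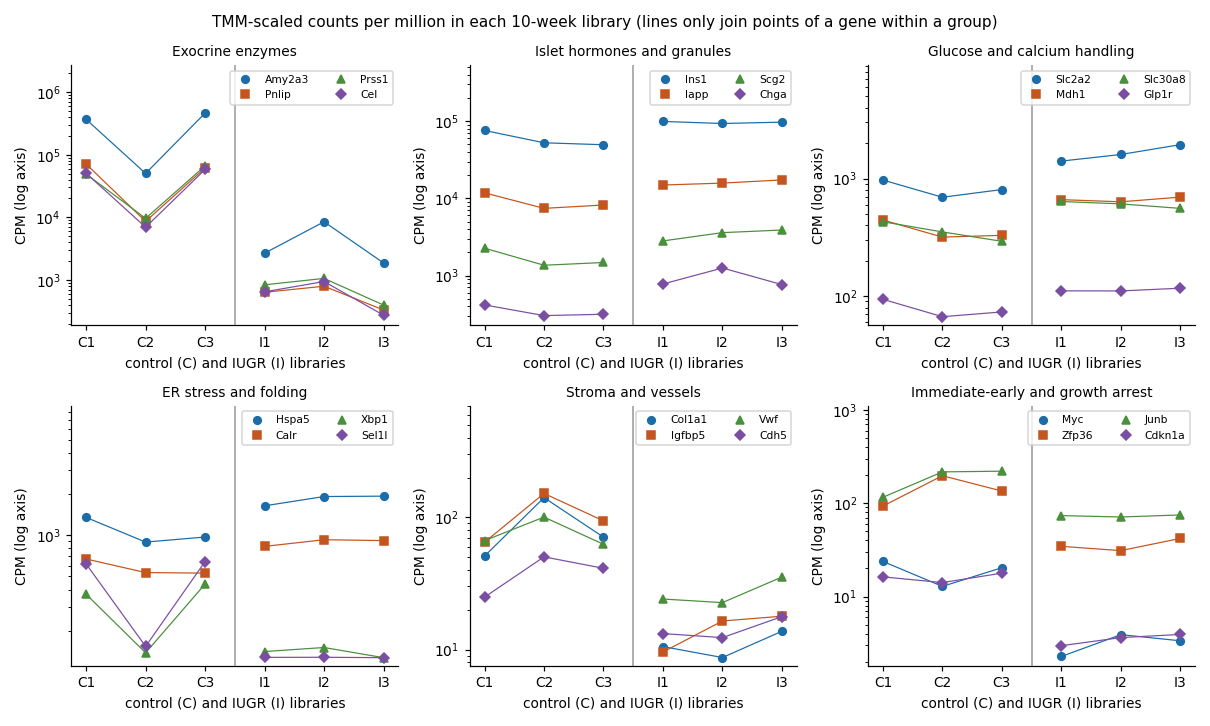
CPM (TMM-scaled, log axes) of named genes in control libraries C1 to C3 and IUGR libraries I1 to I3; lines only join points of a gene within a group. Amy2a3, Xbp1 and Sel1l dip in C2, whereas Col1a1, Igfbp5, Vwf and Zfp36 peak there.

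Channels and receptors of islets moved both ways. Potassium channel genes had 9 rises and 4 falls among 42 (2 and 4 without control libraries 1 and 3). Calcium, sodium, chloride and TRP channel genes had 13 rises and 10 falls among 48 (5 and 7 without control libraries 1 and 3). Over all libraries 21.4% of the first list and 27.1% of the second rose, against 12.1% of all genes. Falls were 9.52% and 20.8%, against 15.4% of all genes. Without the 2 controls falls led in both lists, as they did among all genes. Trpa1, an irritant-gated cation channel, rose from 12.8, 8.65 and 7.96 CPM to 24.7, 20.4 and 33.3 CPM (log2 fold change 1.41 ± 0.26, edgeR adjusted p = 0.0045). Slc8a1, the sodium-calcium exchanger, had 163, 144 and 131 CPM against 241, 225 and 273 CPM (log2 fold change 0.76 ± 0.16, edgeR adjusted p = 0.0075). Abcc8, the sulfonylurea receptor of the ATP-sensitive potassium channel, had 112, 103 and 84.1 CPM against 147, 116 and 154 CPM and did not pass (log2 fold change 0.48 ± 0.19, edgeR adjusted p = 0.079). Kcnq1 fell from 39.9, 14 and 55.7 CPM to 7.60, 4.28 and 3.29 CPM (log2 fold change -2.85 ± 0.49, edgeR adjusted p = 0.0032), with control library 2 the lowest control. Incretin receptors, which raise cAMP, were among the rises: Gipr had 79.2, 64.9 and 56.8 CPM against 138, 90.7 and 139.6 CPM (log2 fold change 0.87 ± 0.21, edgeR adjusted p = 0.013). Glp1r had 94.0, 66.8 and 73.3 CPM against 111, 111 and 117 CPM (log2 fold change 0.53 ± 0.18, edgeR adjusted p = 0.044). Neither overlapped, and without control libraries 1 and 3 their edgeR adjusted p values were 0.062 and 0.051. Ptger3, a prostaglandin receptor, fell from 32.0, 7.59 and 67.0 CPM to 1.20, 1.37 and 0.519 CPM (log2 fold change -5.11 ± 0.78, edgeR adjusted p = 0.002), with control library 2 the lowest control.

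Genes of the ER folding list and the Golgi list rose or did not pass, while some ER genes of other lists fell. Of 43 genes of ER translocation, folding and glycosylation, 15 rose and none fell (median 0.40); without control libraries 1 and 3, 20 rose (median 0.69). With single libraries left out, 3 (without control library 3) to 27 (without control library 1) rose. Hspa5, the chaperone BiP whose promoter is printed above, had 1348, 890.1 and 969.6 CPM against 1639, 1917 and 1929 CPM (log2 fold change 0.77 ± 0.20, edgeR adjusted p = 0.019). Calr, calreticulin, had 669.7, 533 and 528 CPM against 828, 926 and 913 CPM (log2 fold change 0.62 ± 0.15, edgeR adjusted p = 0.012). Hsp90b1, the ER form of HSP90, had 940.0, 649.7 and 675 CPM against 1131, 1073 and 1146 CPM (log2 fold change 0.57 ± 0.17, edgeR adjusted p = 0.028). All IUGR libraries exceeded all controls in each. P4hb, protein disulfide isomerase, had 1275, 615 and 1232 CPM against 767, 859 and 934 CPM and did not pass (log2 fold change -0.29 ± 0.28, edgeR adjusted p = 0.48); its controls 1 and 3 lay above every IUGR library and control 2 below. Of 40 Golgi and vesicle genes 13 rose and none fell, and 19 rose without the same libraries; single libraries left out gave 4 (without control library 2 or control library 3) to 20 (without control library 1) rises. Copa, a coat protein of Golgi vesicles, had 281, 225 and 230.4 CPM against 334, 336 and 344 CPM (log2 fold change 0.46 ± 0.11, edgeR adjusted p = 0.013), with no overlap.

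The unfolded protein response list went the other way: 11 of 23 fell and none rose (median -0.58); single libraries left out gave 4 (without control library 3) to 10 (without control library 2) falls. Sel1l, which pulls misfolded proteins out of the ER, had 616, 154 and 642 CPM against 128, 128 and 127 CPM (log2 fold change -1.88 ± 0.47, edgeR adjusted p = 0.015). Xbp1, the transcription factor of the response, had 369.8, 138 and 439.6 CPM against 141, 151 and 127 CPM (log2 fold change -1.18 ± 0.36, edgeR adjusted p = 0.035). Control library 2 lay near the IUGR libraries in both genes. Without control libraries 1 and 3 the log2 fold changes were -0.25 for Sel1l and 0.04 for Xbp1, and 4 of the 23 genes fell (median 0.04). Trib3 and Chac1, targets of the stress kinase branch, and Atf3 kept their calls there. Atf3 had 103, 272 and 188 CPM against 50.6, 44.0 and 44.8 CPM (log2 fold change -2.01 ± 0.38, edgeR adjusted p = 0.0049) and, unlike Sel1l, peaked in control library 2. Herpud1, of ER-associated degradation, had 199, 84.2 and 186 CPM against 68.5, 73.3 and 77.0 CPM (log2 fold change -1.1 ± 0.26, edgeR adjusted p = 0.012) and a log2 fold change of -0.19 without the 2 libraries. The acinar share was highest in the same controls as Sel1l, Xbp1 and Herpud1; its part in these falls was not tested.

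Among protein synthesis and disposal lists, ribosomal proteins and the proteasome moved mainly 1 way, and translation factors did not. Of 75 cytosolic ribosomal protein genes 25 fell and none rose (median -0.42), but 1 fell without control libraries 1 and 3, and 1 (without control library 3) to 34 (without IUGR library 2) when single libraries were left out. The single one was Rps16, a small-subunit protein, at 132, 133 and 143 CPM against 78.5, 53.5 and 65.5 CPM (log2 fold change -1.05 ± 0.14, edgeR adjusted p = 0.0014). Ribosome biogenesis genes had 2 rises and no fall among 35. Translation factor and tRNA ligase genes had 5 rises and 5 falls among 42, 11.9% each, against 12.1% and 15.4% of all genes. Eef1a1, a member that fell and that brings tRNA to the ribosome, had 3666, 3037 and 4448 CPM against 1991, 2277 and 2079 CPM (log2 fold change -0.81 ± 0.20, edgeR adjusted p = 0.014). It was lowest in control library 2 among controls, whereas Rps16 was nearly level across them. Proteasome and ubiquitin genes had 12 rises and no fall among 41 (10 and 0 without control libraries 1 and 3), with 1 (without control library 3) to 21 (without control library 1) rises when single libraries were left out. One riser was Psmd1 at 107, 89.5 and 90.3 CPM against 127, 131 and 124 CPM (log2 fold change 0.41 ± 0.10, edgeR adjusted p = 0.012). Heat-shock genes had 8 rises and 7 falls among 34 (3 and 5 without control libraries 1 and 3). The inducible Hspa1a had 516, 768 and 687 CPM against 391, 321 and 444 CPM (log2 fold change -0.77 ± 0.25, edgeR adjusted p = 0.038) and Hspb1, a small heat-shock protein, 49.2, 79.7 and 72.8 CPM against 18.4, 13.8 and 29.3 CPM (log2 fold change -1.71 ± 0.36, edgeR adjusted p = 0.0074). Hspa1a and its near-identical copy Hspa1b may share reads.

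Citric acid cycle and anaplerosis genes had 9 rises and no fall among 29 (8 and 0 without control libraries 1 and 3), with 2 (without control library 3) to 12 (without control library 1) rises when single libraries were left out. Mdh1, cytosolic malate dehydrogenase of the malate shuttle, had 444, 318 and 329 CPM against 661, 634 and 695 CPM (log2 fold change 0.87 ± 0.15, edgeR adjusted p = 0.0036). Pc, pyruvate carboxylase, which refills the cycle in beta cells, had 58.5, 61.9 and 63.5 CPM against 98.3, 83.5 and 90.4 CPM (log2 fold change 0.57 ± 0.11, edgeR adjusted p = 0.0049). Neither overlapped. The nuclear respiratory chain had 6 rises and no fall among 69 (8.7%, against 12.1% of all genes) and a median of 0.07. Without control libraries 1 and 3 its median was 0.36, so the low share of rises holds only for the comparison of all libraries. Mitochondrial genome genes had 4 rises and no fall among 13 (2 and 0 without control libraries 1 and 3); Mt-nd6 had 53.3, 49.5 and 38.0 CPM against 78.6, 63.2 and 95.5 CPM (log2 fold change 0.75 ± 0.16, edgeR adjusted p = 0.0083), and Mt-co1, a subunit of complex IV, had 7201, 6122 and 6399 CPM against 7278, 7458 and 7902 CPM and did not pass (log2 fold change 0.20 ± 0.20, edgeR adjusted p = 0.48). Fatty acid oxidation and peroxisome genes had 6 rises and 4 falls among 29 (20.7% and 13.8%, against 12.1% and 15.4% of all genes). Hadh, of that list and high in beta cells, rose from 448, 372 and 341 CPM to 606, 617 and 659 CPM (log2 fold change 0.70 ± 0.15, edgeR adjusted p = 0.0085).

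Lipid genes moved both ways. Rises were 15.4% of cholesterol genes and 22.7% of fatty acid and triglyceride synthesis genes, against 12.1% of all genes. Falls were 0% and 18.2%, against 15.4% of all genes. Cholesterol genes had 4 rises and no fall among 26 (0 and 0 without control libraries 1 and 3). Fatty acid and triglyceride synthesis genes had 5 rises and 4 falls among 22 (2 and 3 without control libraries 1 and 3); Fasn, fatty acid synthase, had 89.4, 85.6 and 82.0 CPM against 95.5, 78.5 and 92.4 CPM and overlapping groups (log2 fold change 0.05 ± 0.12, edgeR adjusted p = 0.78). Acacb, the mitochondrial acetyl-CoA carboxylase, fell from 11.2, 8.20 and 13.8 CPM to 3.06, 1.87 and 1.71 CPM (log2 fold change -2.32 ± 0.30, edgeR adjusted p = 0.0011). Lpl, lipoprotein lipase, had 117, 122 and 222 CPM against 35.2, 39.0 and 38.6 CPM (log2 fold change -2.03 ± 0.22, edgeR adjusted p = 0.00073), with every IUGR library below every control.

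Of the 27 disallowed genes of beta cells 23 fell and none rose (median -1.31); 20 fell without control libraries 1 and 3. Ldha, which makes lactate, had 36.6, 72.2 and 54.7 CPM against 15.8, 24.9 and 18.1 CPM (log2 fold change -1.48 ± 0.22, edgeR adjusted p = 0.0019). Slc16a1, the lactate and pyruvate carrier, had 5.58, 9.17 and 13.1 CPM against 3.17, 3.96 and 2.67 CPM (log2 fold change -1.5 ± 0.26, edgeR adjusted p = 0.0033). Hk1, the high-affinity hexokinase, had 17.6, 23.8 and 30.6 CPM against 9.24, 8.62 and 8.75 CPM (log2 fold change -1.43 ± 0.18, edgeR adjusted p = 0.00099). No IUGR library reached the control range in any of the 3. Yap1, a growth regulator known to be low in endocrine cells, had 8.49, 9.19 and 10.2 CPM against 4.31, 3.56 and 3.83 CPM (log2 fold change -1.25 ± 0.12, edgeR adjusted p = 0.0005). 13 of the list's genes stand in other lists, and other islet and exocrine cell types express these genes too. Glycolysis as a whole had 6 rises and 7 falls among 27 (0 and 9 without control libraries 1 and 3); Gapdh stood at 253, 284 and 215 CPM against 237, 293 and 272 CPM (log2 fold change 0.09 ± 0.12, edgeR adjusted p = 0.6), with overlapping groups.

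Redox and amino acid enzymes held more falls than rises. Antioxidant and metallothionein genes had 3 rises and 14 falls among 34 (3 and 9 without control libraries 1 and 3). Mt2A, a metal-binding metallothionein, dropped from 21.8, 16.3 and 32.6 CPM to 0.918, 2.42 and 1.85 CPM (log2 fold change -3.76 ± 0.36, edgeR adjusted p = 0.0005). Txnip, the thioredoxin-binding protein induced by glucose, had 533, 405 and 747 CPM against 142, 133 and 91.9 CPM (log2 fold change -2.20 ± 0.25, edgeR adjusted p = 0.00081). Every control lay above every IUGR library in both. Prdx4, the ER peroxiredoxin, had 294, 61.6 and 329.9 CPM against 17.9, 19.4 and 13.5 CPM (log2 fold change -3.75 ± 0.59, edgeR adjusted p = 0.0022), with control library 2 far below the other controls, while Sod1, cytosolic superoxide dismutase, rose from 108, 90.9 and 91.5 CPM to 139, 153 and 148 CPM (log2 fold change 0.60 ± 0.10, edgeR adjusted p = 0.0024). Amino acid, one-carbon and nucleotide genes had 2 rises and 18 falls among 51 (2 and 11 without control libraries 1 and 3), and control library 2 was the lowest control in 13 of the falls. Cth and Cbs, the enzymes of transsulfuration, were examples. Cbs had 54.7, 9.64 and 47.0 CPM against 1.34, 1.54 and 0.766 CPM (log2 fold change -4.93 ± 0.69, edgeR adjusted p = 0.0016), with control library 2 the lowest control.

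Connective tissue and vessel genes were lower in IUGR islets, and in most of them control library 2 was the highest or the middle control. Of 22 endothelial markers 19 fell, 18 without control libraries 1 and 3 and 9 (without IUGR library 1 or IUGR library 2) to 20 (without control library 1) when single libraries were left out, and control library 2 was the highest control in 15 of the 19. Cdh5, the cadherin of vessel walls, had 24.9, 50.3 and 41.2 CPM against 13.2, 12.3 and 17.7 CPM (log2 fold change -1.43 ± 0.28, edgeR adjusted p = 0.0054). Vwf, von Willebrand factor, had 66.7, 101 and 62.5 CPM against 24.1, 22.6 and 35.4 CPM (log2 fold change -1.49 ± 0.30, edgeR adjusted p = 0.0061). Plvap, of fenestrated capillaries, had 169, 295 and 264 CPM against 113, 83.0 and 136 CPM (log2 fold change -1.13 ± 0.23, edgeR adjusted p = 0.0059). The 2 groups did not overlap in these 3 genes. Flt1, a VEGF receptor, had 89.5, 146 and 135 CPM against 103, 79.6 and 126 CPM and did not pass (log2 fold change -0.27 ± 0.25, edgeR adjusted p = 0.45), and Vegfa, the growth factor itself, rose from 226, 188 and 178 CPM to 298, 257 and 313 CPM (log2 fold change 0.55 ± 0.12, edgeR adjusted p = 0.0096). The endothelial list held 0.0951% ± 0.0734 and 0.0882% ± 0.0125 of all counts and 0.138% ± 0.067 and 0.0896% ± 0.0118 of the counts once the acinar list is set aside (exact permutation p = 0.3, n = 3 each).

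Fibroblast and stellate markers fell in 17 of 23 genes (median -1.47), 16 without control libraries 1 and 3. Col1a1, a chain of fibrillar collagen I, had 50.9, 141 and 70.9 CPM against 10.5, 8.69 and 13.7 CPM (log2 fold change -3.0 ± 0.38, edgeR adjusted p = 0.0012). Col3a1, of collagen III, had 483, 1017 and 1084 CPM against 191, 195 and 244 CPM (log2 fold change -2.04 ± 0.32, edgeR adjusted p = 0.0024). Igfbp5, a secreted binder of insulin-like growth factors, had 64.8, 152 and 94.2 CPM against 9.57, 16.4 and 17.9 CPM (log2 fold change -2.82 ± 0.34, edgeR adjusted p = 0.00089). All controls exceeded all IUGR libraries. Mgp, matrix Gla protein, had 99.2, 133 and 124 CPM against 91.8, 118 and 114 CPM and overlapping groups (log2 fold change -0.14 ± 0.16, edgeR adjusted p = 0.56), so not every marker passed. Matrix glycoproteins had no rise and 25 falls among 38 (0 and 23 without control libraries 1 and 3), and collagens had 2 rises and 15 falls among 30 (0 and 16 without control libraries 1 and 3). Matrix proteases with their inhibitors had 3 rises and 18 falls among 35 (1 and 17 without control libraries 1 and 3). Among collagens, Col27a1 rose, from 181, 155 and 131 CPM to 258, 206 and 313 CPM (log2 fold change 0.73 ± 0.17, edgeR adjusted p = 0.011). The basement membrane collagen Col4a1 had 281, 422 and 419 CPM against 237, 188 and 381 CPM and did not pass (log2 fold change -0.48 ± 0.26, edgeR adjusted p = 0.19). As a set, collagens held 0.221% ± 0.158 of all counts in controls and 0.208% ± 0.0385 in IUGR. With acinar counts taken out the shares were 0.325% ± 0.142 and 0.212% ± 0.0371 (exact permutation p = 0.3, n = 3 each). There control library 1, at 0.1918%, lay inside the IUGR range. The fibroblast list held 0.298% ± 0.138 and 0.13% ± 0.0141 on that basis, without overlap (exact permutation p = 0.1, n = 3 each). Loxl4, a collagen cross-linker, had 2.79, 3.06 and 4.34 CPM against 0.362, 0.374 and 0.222 CPM (log2 fold change -3.40 ± 0.33, edgeR adjusted p = 0.0005).

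Nerve-related genes fell too. Schwann cell markers had no rise and 7 falls among 11 (0 and 9 without control libraries 1 and 3), with 3 (without control library 2 or IUGR library 3) to 9 (without control library 1) falls when single libraries were left out. Neuronal markers had 3 rises and 6 falls among 14 (2 and 6 without control libraries 1 and 3). Nefl, a neurofilament, had 1.71, 11.4 and 4.78 CPM against 0.362, 0.199 and 0.297 CPM (log2 fold change -4.39 ± 0.65, edgeR adjusted p = 0.0018). Vip, a neuropeptide of pancreatic nerves, had 1.43, 11.1 and 5.51 CPM against 0.0557, 0 and 0.395 CPM (log2 fold change -5.28 ± 0.91, edgeR adjusted p = 0.0032). Dbh, of noradrenaline synthesis, had 0.760, 3.48 and 1.94 CPM against 0.167, 0.324 and 0.222 CPM (log2 fold change -3.11 ± 0.49, edgeR adjusted p = 0.0022). Control library 2 was the highest control in all 3 and in every neuronal gene that fell. The neuronal genes that rose, Snap25 and Elavl4 among them, are also expressed by endocrine cells. Cytoskeleton genes had no rise and 15 falls among 40 (0 and 20 without control libraries 1 and 3); Actb had 657, 1124 and 889 CPM against 544, 619.9 and 539 CPM (log2 fold change -0.65 ± 0.18, edgeR adjusted p = 0.021).

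**Figure D4:**
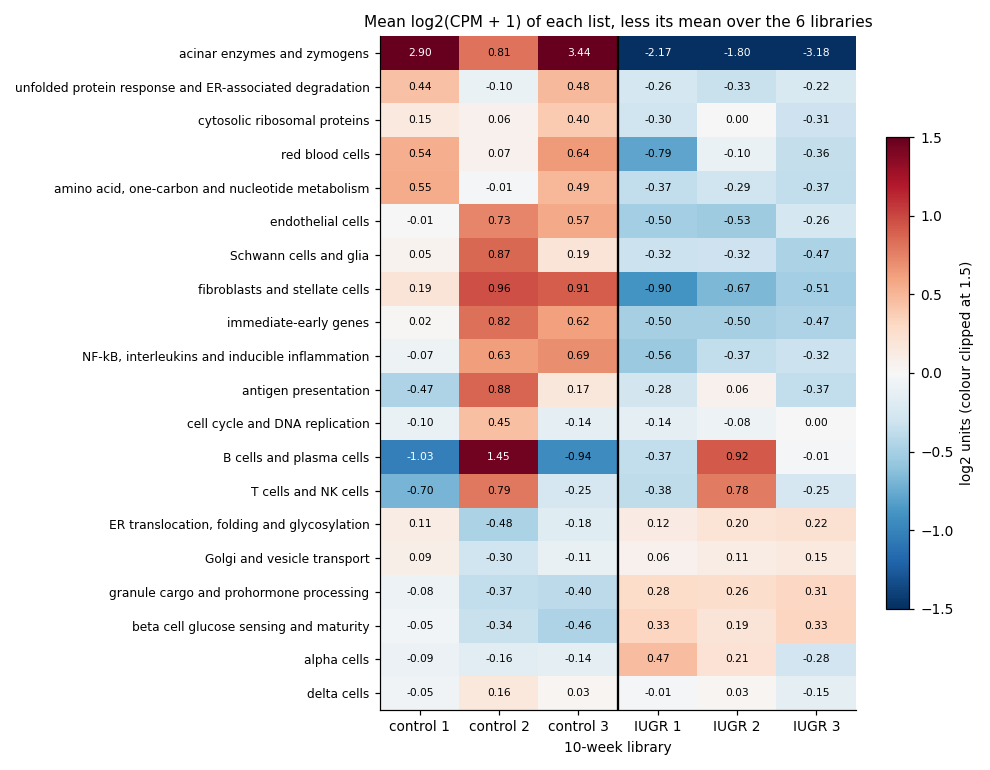
Mean log2(CPM + 1) of each list in the 6 libraries at 10 weeks, less its mean over them; colour is clipped at 1.5 log2 units. The acinar, unfolded protein response and red cell rows are lowest among controls in control 2, whereas the endothelial, Schwann and immediate-early rows are highest there, and the B and T cell rows are high in control 2 and IUGR 2.

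Most immune cell markers did not pass, and several were high in 1 library of each group. Macrophage markers fell in 4 of 20, T and NK cell markers in 2 of 18, and B cell markers in 0 of 12. Among all genes 15.4% fell. Single libraries left out gave 1 to 12 (without control library 1) macrophage calls in either direction. T and NK cell calls then numbered 0 to 3, and B cell calls 0 to 8 (without control library 2). Cr2, the complement receptor of B cells, had 0.887, 59.7 and 1.13 CPM against 5.09, 61.0 and 13.2 CPM (log2 fold change 0.35 ± 1.37, edgeR adjusted p = 0.87). Cd79b, of the B cell receptor, had 0.412, 17.0 and 1.06 CPM against 2.81, 13.1 and 5.39 CPM (log2 fold change 0.18 ± 1.09, edgeR adjusted p = 0.92). Lck, a T cell kinase, had 1.33, 13.6 and 3.07 CPM against 3.53, 17.5 and 4.40 CPM (log2 fold change 0.48 ± 0.75, edgeR adjusted p = 0.67). Control 2 and IUGR 2 were the highest of their groups in all 3, far above the other libraries. Ccl21, a chemokine of lymphatic vessels and lymph nodes, had 3.55, 88.0 and 1.39 CPM against 55.3, 80.3 and 44.9 CPM: control 2 and all IUGR libraries were high and controls 1 and 3 low (log2 fold change 0.95 ± 1.07, edgeR adjusted p = 0.54). Red cell genes had no rise and 5 falls among 8 (0 and 0 without control libraries 1 and 3); Hba1 had 165, 100.3 and 166 CPM against 29.9, 69.7 and 49.6 CPM (log2 fold change -1.53 ± 0.32, edgeR adjusted p = 0.0072). Globin genes have near-identical copies that may share reads.

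Many inducible genes were lower after TMM scaling. Of 36 immediate-early genes, switched on within minutes of a stimulus, 24 fell and none rose (median -1.14); 24 fell without control libraries 1 and 3, and 15 (without IUGR library 1) to 30 (without control library 1) when single libraries were left out. Myc, a growth transcription factor, had 23.8, 12.9 and 20.4 CPM against 2.28, 3.91 and 3.36 CPM (log2 fold change -2.57 ± 0.29, edgeR adjusted p = 0.00074). Zfp36, which speeds decay of cytokine mRNA, had 93.2, 197 and 135 CPM against 34.5, 31.1 and 42.0 CPM (log2 fold change -1.98 ± 0.37, edgeR adjusted p = 0.0045). Jund, of the AP-1 family and printed above, had 50.6, 87.7 and 88.9 CPM against 39.2, 38.8 and 30.3 CPM (log2 fold change -1.07 ± 0.19, edgeR adjusted p = 0.0039). No IUGR library reached the lowest control. Fos had 234, 632 and 474 CPM against 274, 262 and 226 CPM and did not pass (log2 fold change -0.81 ± 0.34, edgeR adjusted p = 0.098), with control library 1 inside the IUGR range. The immediate-early list held 0.221% ± 0.181 of all counts in controls and 0.169% ± 0.00894 in IUGR. With acinar counts taken out it held 0.318% ± 0.17 and 0.172% ± 0.0094 (exact permutation p = 0.2, n = 3 each). By that share control library 1, at 0.1757%, lay inside the IUGR range of 0.1627% to 0.1815%. NF-kB and interleukin genes had no rise and 20 falls among 43 (0 and 18 without control libraries 1 and 3), and chemokines had no rise and 11 falls among 26 (0 and 11 without control libraries 1 and 3). Without control library 3 alone, NF-kB, chemokine and interferon response falls numbered 12, 5 and 3. Complement and coagulation genes had 2 rises and 19 falls among 34 (1 and 17 without control libraries 1 and 3), and interferon response genes no rise and 14 falls among 41 (0 and 18 without control libraries 1 and 3). Nfkbia, the NF-kB inhibitor, had 132, 255 and 231 CPM against 74.3, 86.7 and 105 CPM (log2 fold change -1.22 ± 0.32, edgeR adjusted p = 0.019). C3, the central complement protein, had 29.6, 46.6 and 86.7 CPM against 8.82, 7.87 and 5.58 CPM (log2 fold change -2.87 ± 0.48, edgeR adjusted p = 0.0029). Of antigen presentation genes 13.8% fell, against 15.4% of all genes. Antigen presentation had no rise and 4 falls among 29 (0 and 10 without control libraries 1 and 3); the class I gene RT1-A2, at 233, 622 and 377 CPM against 186, 269 and 235 CPM, was highest in control library 2 and did not pass (log2 fold change -0.84 ± 0.36, edgeR adjusted p = 0.11).

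Growth and developmental signalling fell in part. Growth factors and receptor kinases had 3 rises and 20 falls among 46 (2 and 15 without control libraries 1 and 3), and the TGF-beta and BMP pathway had 2 rises and 20 falls among 45 (0 and 16 without control libraries 1 and 3). Notch genes had 1 rise and 11 falls among 24 (1 and 11 without control libraries 1 and 3), Wnt genes 1 rise and 15 falls among 41 (1 and 10 without control libraries 1 and 3) and axon guidance genes 2 rises and 19 falls among 42 (2 and 19 without control libraries 1 and 3). Without control library 3 alone, growth factor, Notch and axon guidance falls numbered 10, 7 and 12. Igf1, the growth factor, had 17.0, 13.6 and 25 CPM against 5.12, 5.13 and 5.14 CPM (log2 fold change -1.85 ± 0.19, edgeR adjusted p = 0.00054). Grb10, an imprinted inhibitor of insulin and IGF receptors, had 35.5, 34.2 and 45.2 CPM against 11.8, 9.09 and 8.30 CPM (log2 fold change -1.98 ± 0.17, edgeR adjusted p = 0.0005). Fzd1, a Wnt receptor, had 5.67, 8.06 and 5.95 CPM against 2.42, 2.49 and 2.69 CPM (log2 fold change -1.38 ± 0.14, edgeR adjusted p = 0.00054). The IUGR libraries lay below the controls in each. Ntn1, netrin-1, fell from 9.85, 9.66 and 13.9 CPM to 0.640, 1.34 and 0.964 CPM (log2 fold change -3.49 ± 0.36, edgeR adjusted p = 0.00054), while the receptors Epha5 and Robo2 rose, Robo2 from 174, 124 and 130.2 CPM to 272, 251 and 272 CPM (log2 fold change 0.89 ± 0.22, edgeR adjusted p = 0.013). Insulin and mTOR signalling had 1 rise and 11 falls among 40 (2 and 10 without control libraries 1 and 3); Akt1, the central kinase, had 88.3, 68.8 and 84.4 CPM against 79.4, 74.8 and 86.5 CPM and overlapping groups (log2 fold change 0 ± 0.14, edgeR adjusted p = 0.99). Imprinted genes moved both ways, with 8 rises and 7 falls among 25 (4 and 6 without control libraries 1 and 3); Rtl1 and Peg3 were among the rises.

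Cell cycle genes had 5 falls and 2 rises in 48, shares below those of all genes. Cdkn1a, the p21 inhibitor of division, had 16.3, 14.1 and 17.8 CPM against 2.98, 3.64 and 3.93 CPM (log2 fold change -2.19 ± 0.20, edgeR adjusted p = 0.0005), with no overlap. Mki67, a mark of dividing cells, had 68.1, 162 and 59.3 CPM against 52.7, 58.3 and 57.8 CPM and did not pass (log2 fold change -0.78 ± 0.30, edgeR adjusted p = 0.078); control library 2 alone was high. Without control libraries 1 and 3, 24 cell cycle genes fell, Mki67 among them (log2 fold change -1.5, edgeR adjusted p = 0.00095), so this count rests on control library 2. Chromatin and DNA methylation genes had 3 rises and 5 falls among 53 (2 and 8 without control libraries 1 and 3). DNA repair and p53 genes had 1 rise and 6 falls among 38 (0 and 3 without control libraries 1 and 3), and clock genes 1 rise and 6 falls among 20 (0 and 6 without control libraries 1 and 3); both turned to more rises than falls, 5 against 1 and 2 against 1, with library size less the acinar list and no TMM factor. Falls were 9.43% of the chromatin, 15.8% of the DNA repair and 30% of the clock genes, against 15.4% of all genes. Per1, a clock gene, had 36.2, 55.4 and 36.6 CPM against 21.7, 22.2 and 29.1 CPM (log2 fold change -0.81 ± 0.20, edgeR adjusted p = 0.014). Nuclear receptors had 1 rise and 14 falls among 34 (1 and 9 without control libraries 1 and 3); Nr1h3, the oxysterol receptor LXR alpha, had 4.44, 7.01 and 7.12 CPM against 2.56, 3.16 and 3.01 CPM (log2 fold change -1.09 ± 0.18, edgeR adjusted p = 0.0029), and Nr3c1, the glucocorticoid receptor, had 114, 94.6 and 125 CPM against 99.7, 95.3 and 91.8 CPM and overlapping groups (log2 fold change -0.22 ± 0.11, edgeR adjusted p = 0.17).

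Some of the largest changes were of genes with other roles. Zwint, a kinetochore protein also found in neurons, rose from 28.9, 30.5 and 25.7 CPM to 87.7, 84.5 and 82.6 CPM (log2 fold change 1.58 ± 0.19, edgeR adjusted p = 0.00086), with every control far below every IUGR library. Gc, the vitamin D-binding protein made by alpha cells, had 208, 155 and 189 CPM against 642, 467 and 274 CPM (log2 fold change 1.32 ± 0.31, edgeR adjusted p = 0.011). Gucy2c, the guanylin receptor, had 18.9, 14.2 and 12.8 CPM against 34.3, 39.5 and 45.5 CPM (log2 fold change 1.38 ± 0.42, edgeR adjusted p = 0.034), and its edgeR adjusted p without control libraries 1 and 3 was 0.13. Slitrk6, Pcp4, Tmtc2, Abhd3 and Anxa10 rose by log2 1.1 to 1.22. Among the largest falls, several had control library 2 as the lowest control: Tff2, a trefoil peptide, had 347, 55.3 and 390.3 CPM against 4.76, 6.33 and 2.05 CPM (log2 fold change -5.91 ± 0.77, edgeR adjusted p = 0.0012). Aqp12a, a water channel of acinar cells, had 148, 27.8 and 170.1 CPM against 1.89, 2.91 and 0.939 CPM (log2 fold change -5.91 ± 0.80, edgeR adjusted p = 0.0014). Cpa4 rested on control library 1 alone, at 85.5, 0.400 and 3.14 CPM against 0.0557, 0.149 and 0.173 CPM (log2 fold change -7.82 ± 2.07, edgeR adjusted p = 0.019), with an edgeR adjusted p of 0.56 without control libraries 1 and 3.

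In all, 47 genes passed in the same direction in the comparison of all libraries, with the acinar covariate and without control libraries 1 and 3, and 46 of them were lower in IUGR. The 3 fits share libraries, so passing in all of them is not separate support. The covariate fit alone called 55 genes lower and 2 higher, so few rises could be among the 47. Several of the named genes of this group are matrix genes. Lamc3, a laminin chain, had 4.18, 6.44 and 5.37 CPM against 0.223, 0.399 and 0.470 CPM (log2 fold change -3.85 ± 0.41, edgeR adjusted p = 0.00058). Chrdl1, a BMP antagonist, had 13.7, 12.5 and 15.5 CPM against 1.36, 1.22 and 0.988 CPM (log2 fold change -3.55 ± 0.22, edgeR adjusted p = 9.1e-05). Tnxb, a tenascin of loose connective tissue, had 11.6, 56.0 and 19.7 CPM against 1.48, 3.19 and 5.39 CPM (log2 fold change -3.12 ± 0.67, edgeR adjusted p = 0.008). None of the 3 overlapped, and control library 2 was highest in Lamc3 and Tnxb but lowest in Chrdl1. Col1a1, Igfbp5, Tspan11, Fndc1, Lgi4, Lrrc32, Flnc, Kank4 and Pi15 belonged to the same group, with log2 fold changes from -3.0 to -1.89 in the comparison of all libraries. Flnc, filamin C of muscle, had 6.84, 8.11 and 8.36 CPM against 1.61, 1.02 and 2.52 CPM (log2 fold change -2.17 ± 0.26, edgeR adjusted p = 0.00089).

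The effect at 10 weeks was set against that at 2 weeks in a test of the difference. At 2 weeks 301 genes (1.73%) rose and 397 (2.29%) fell. The IUGR effect was higher at 10 weeks than at 2 weeks in 654 genes (3.77%) and lower in 1822 (10.5%) by edgeR's adjusted p. Of the genes called at both ages, 150 moved the same way, 101 down and 49 up, and 95 moved in opposite ways, of which 61 were higher at 2 weeks and lower at 10. Stromal, vascular and inducible lists carried many differences: 29 of 36 immediate-early genes, 20 of 23 fibroblast genes and 19 of 22 endothelial genes had a lower effect at 10 weeks. Their medians were 0.80, 0.63 and 0.50 at 2 weeks and -1.14, -1.47 and -0.99 at 10 weeks. At 2 weeks only 0, 2 and 0 of these genes passed as higher, so a rise at that age is not shown for most of them. Col1a1 had a log2 fold change of 0.86 ± 0.35 at 2 weeks and -3.0 ± 0.38 at 10 (edgeR adjusted p of the difference 0.0024). Myc had -0.36 ± 0.26 and -2.57 ± 0.29 (edgeR adjusted p of the difference 0.0059).

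Some ER and glucose-sensing genes passed the test of the difference, and no granule gene did. Of the 43 ER genes 3 had a higher effect at 10 weeks, of the 31 glucose-sensing genes 6, and of the 24 granule genes 0, against 3.77% of all genes. The ER and glucose-sensing shares lay above that of all genes, though they rest on few genes. For the other members, a rise at 10 weeks without a call at 2 weeks is not shown to differ between the ages. Rfx6 was among those that differed, with -0.03 ± 0.15 at 2 weeks and 0.92 ± 0.15 at 10 (edgeR adjusted p of the difference 0.015). Gipr was another, with -0.61 ± 0.21 and 0.87 ± 0.21 (edgeR adjusted p of the difference 0.0097). Zwint also differed, with 0.02 ± 0.18 and 1.58 ± 0.19 (edgeR adjusted p of the difference 0.0051). The mitochondrial genome had a median of -0.29 at 2 weeks, when 2 of 13 genes passed as lower, and 0.29 at 10, with 6 of 13 genes differing. Acinar genes had medians of -2.62 at 2 weeks, when 7 of 45 passed as lower, and -5.72 at 10 weeks, and 10 of 45 had a lower effect at 10 weeks.

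**Figure D5:**
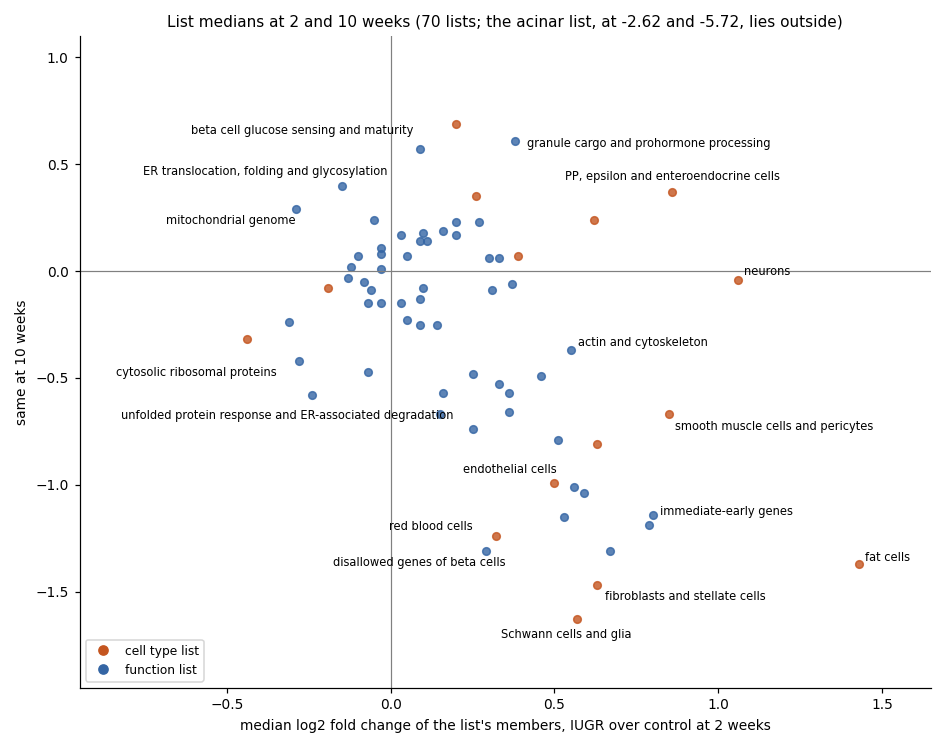
Median log2 fold change, IUGR over control, of the members of 70 gene lists at 2 weeks (horizontal) and 10 weeks (vertical); the acinar list lies outside the axes. Stromal, immediate-early and disallowed lists lie to the lower right, above 0 at 2 weeks and below 0 at 10 weeks.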

How the data were processed

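Total RNA of rat islets was sequenced from stranded, ribosome-depleted libraries, per the labels' protocols. The deposited table gives raw read counts per transcript for 12 libraries; TopHat2 2.0.9, bedtools, rn5 and mm9 appear, with no roles given, in the submitters' processing notes. Each count column was matched to a library by its name.

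All 12 libraries entered 1 edgeR 4.0.16 quasi-likelihood fit (limma 3.58.1, R 4.3.3) with TMM factors after edgeR's filter on low counts, 4 groups and no covariate. The contrasts were IUGR against control at 10 weeks, the same at 2 weeks, and their difference. P-values were Benjamini-Hochberg adjusted over all 20733 transcripts tested, and each symbol was read from its transcript with the highest mean count, 17360 symbols in all. Calls have an adjusted p under 0.05; errors of log2 fold changes are standard errors derived from the fold change and its F statistic. CPM were taken over the TMM-scaled library size. Shares are of a library's symbol counts, compared by two-sided exact permutation tests. The fit was tested on simulated data. Replicate libraries differed by more than counting noise, so none was merged.

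The members and the 71 gene lists were chosen with earlier results of these data known. Named genes are, by rule, up to 12 per direction with the largest change (CPM not overlapping, outside the acinar list), in each list the 4 called members with the smallest p and the 4 with the highest CPM, the 10 most counted symbols of either group, and up to 12 that passed in all 3 fits. Canx, Creld2, Dnajc3, Ier2 and Maff were named after their values were seen, for their promoters. Alternatives were DESeq2 1.42.0, other scalings, filters, thresholds and sets of libraries. Promoters were matched by symbol to RefSeq, 11111 of the tested symbols.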

Additional observations from a re-analysis of the deposited data

Results flagged for a closer look

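By edgeR's adjusted p, 2476 genes differed in IUGR effect between 10 and 2 weeks, and the named genes among them follow with the log2 effect at 10 weeks less that at 2 weeks. Of matrix, connective tissue and related genes, the difference was -3.85 for Col1a1, -2.68 for Col3a1, -3.45 for Igfbp5, -4.47 for Lamc3 and -3.59 for Chrdl1. It was -3.98 for Tnxb, -3.18 for Fndc1, -3.29 for Loxl4, -2.81 for Lrrc32 and -2.47 for Pi15. Of vessel, nerve and cytoskeleton genes, the difference was -1.97 for Cdh5, -2.12 for Vwf, -1.60 for Plvap, -6.03 for Nefl, -6.95 for Vip and -4.34 for Dbh. It was -2.40 for Lgi4, -1.20 for Actb, -2.89 for Flnc, -1.98 for Kank4 and -3.05 for Tspan11. Of inducible and inflammatory genes, the difference was -2.21 for Myc, -3.06 for Zfp36, -1.28 for Jund, -1.71 for Ier2, -2.08 for Maff and -1.58 for Btg2. It was -1.42 for Dusp1, -1.70 for Fos, -2.85 for Atf3, -2.12 for Nfkbia and -4.04 for C3. Of signalling genes, the difference was -2.12 for Igf1, -1.56 for Grb10, -1.92 for Fzd1, -2.35 for Ntn1, -1.09 for Nr1h3 and -2.06 for Cdkn1a. Of disallowed and metabolic genes, the difference was -2.08 for Ldha, -1.76 for Slc16a1, -1.38 for Hk1, -1.45 for Yap1, -2.50 for Lpl and -1.44 for Acacb. Of stress, redox and red cell genes, the difference was -3.99 for Mt2A, -1.45 for Txnip, -2.42 for Chac1, -1.69 for Hspb1, -2.03 for Hba1 and -0.81 for Rps16. In exocrine-related genes and Sytl2 it was -3.60 for Aqp12a, -3.06 for Cth, -3.96 for Cuzd1 and -1.86 for Sytl2. The effect was higher at 10 weeks in the other named genes, by 1.05 for Anxa10, 1.07 for Col27a1, 1.48 for Gipr, 1.04 for Mt-nd6, 0.95 for Rfx6, 0.48 for Sod1, 0.75 for Vegfa and 1.56 for Zwint.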

How the results depend on the processing

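With the acinar covariate calls moved from 4778 to 57 (2 higher, 55 lower) and gene lists with at least 50% of their members passed in 1 direction from 14 to 0. With only the 6 libraries of 10 weeks they were 2865 calls (1182 higher, 1683 lower) and 9 lists, and at an adjusted p under 0.1 there were 24 lists. With library size less the acinar list and no TMM factor 4101 genes were higher and 1470 lower, and 1 gene was lower in each of the DNA repair and clock lists. Leaving out each library in turn gave 2463 to 5812 calls (831 to 2877 higher, 1632 to 2935 lower) and 6 to 26 lists; SNARE genes called higher numbered 4 (without control library 3) to 21. The acinar covariate turned the log2 fold change of 16 of 141 named genes: 0.47 for Amy2a3, 0.42 for Aqp12a, 0.12 for Cbs, 0.20 for Cel, -0.19 for Col27a1, 0.48 for Cpb1, 0.45 for Cth, 0.14 for Herpud1, 0.76 for Kcnq1, 0.64 for LOC100911494, -0.03 for Mt-nd6, 0.14 for Prdx4, 1.33 for Ptger3, 0.74 for Rab27b, 0.84 for Sel1l and 1.26 for Xbp1. Xbp1 also turned without control libraries 1 and 3, to 0.04. The ribosomal protein share, as control less IUGR, turned to 0.109 percentage points over the counts left after the acinar list. The causes were not tested. Correlations of deviations were 0.22, 0.18 and -0.14 between libraries of the same replicate number and -0.28 to 0.08 between different numbers. These few values cannot tell whether the numbers pair the libraries. The replicate block gave 4599 calls, 15 lists and 2683 age differences against 2476. By DESeq2 2659 genes were higher and 3105 lower, and 133 of the 141 named genes kept direction and side of the threshold. The acinar share stayed higher in controls in every alternative, by 20.3 points without the amylases to 46.6 with LOC100911494, an addition made after seeing the data. With 3 libraries a group, spread between libraries and not depth limits these tests.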

Other observations

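Gene families sorted by the stem of their symbols, a grouping chosen after seeing the data, gave counts that the lists do not hold. Those named here were picked from all stems with at least 25 tested symbols. Among all genes 12.1% rose and 15.4% fell. Of 257 tested Zfp symbols, the zinc finger proteins, 75 (29.2%) rose and 11 (4.28%) fell by edgeR's adjusted p. Of 40 Ube symbols, ubiquitin-conjugating and related enzymes, 11 (27.5%) rose and none fell. Of 31 Vps symbols, of vesicle sorting, 7 (22.6%) rose and none fell. Of 75 Atp symbols, ion pumps and ATP synthase among them, 21 (28%) rose and 4 (5.33%) fell. Falls led in the 39 Cyp symbols, the cytochromes P450, with 11 (28.2%) against 3 rises (7.69%). They also led in the 29 Hist symbols, with 8 falls (27.6%) and no rise. Without control libraries 1 and 3 the Hist symbols had 19 falls. Histone genes have near-identical copies that may share reads.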
